A study of Mus musculus with 4 samples.

Results

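The genes described here encode titin and 8 proteins of the Z-disc, the plate at which the thin filaments of neighbouring sarcomeres are anchored. They are Ttn, Tcap, Actn2, Ldb3, Pdlim5, Myoz2, Nebl, Csrp3 and Des, 9 of 21887 protein-coding genes on the assembled chromosomes. They were chosen by name, and a CTCF region was counted for a gene when its summit lay within 50 kb of the gene's span in the mm10 genome build. That gave 19 of the 16128 regions in the list from hearts labelled CTCF knockout and 24 of the 20043 regions in the control list. No region was counted for more than 1 of the 9 genes.

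CTCF is a zinc-finger protein that binds DNA at insulators and, together with cohesin, at the anchors of chromatin loops. In muscle, titin runs from the Z-disc to the middle of the sarcomere as a molecular spring, and its end in the Z-disc is capped by telethonin and tied to alpha-actinin. LIM, PDZ-LIM and calsarcin proteins gather signalling enzymes at the same plate, and desmin filaments link one Z-disc to the next. Mutations in most of these genes are known from inherited cardiomyopathy.

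CTCF-bound DNA was sequenced after chromatin immunoprecipitation (ChIP-seq) from isolated cardiac myocytes of C57BL/6 mice, taken from the left ventricle. One ChIP library was labelled CTCF knockout and the other control, and the cells behind each came from 3 pooled hearts. The promoter that drives the deletion, the age of the animals and the share of cells that still carried CTCF are not stated in the labels. Regions in the list labelled knockout numbered 0.805 of those in the control list, and a list of regions holds no measure of the deletion itself or of marker genes of the myocytes, so the library is called by its label throughout.

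With 1 library per genotype no test between genotypes was possible, and each difference compares these 2 libraries. Each region carries a fold enrichment, the authors' ratio of ChIP reads at the summit over a local background. Whether that background was taken from the input library is not stated in the labels. The number of reads at each summit (the pileup) was recovered from the fold enrichment and the authors' p-value. The lowest local background was 0.851 reads in the list labelled knockout and 1.01 reads in the control list, a ratio of 0.846. That ratio alone does not tell read depth from fragment length. The lowest region width was 137 bp in the list labelled knockout and 136 bp in the control list. The part of read depth or fragment length in any absence of a region was not tested. Fold enrichments of the 2 lists stand side by side below, and no direction is read from them.

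Of the 24 control regions near the 9 genes, 17 overlapped a region of the list labelled knockout by at least 1 bp (70.8%, Wilson 95% interval 50.8 to 85.1, for counting error only). Over all control regions 69.0% were called in both lists, so the share near these genes was close to the background. In the other direction, 2 of the 19 regions in the list labelled knockout overlapped no control region (10.5%, interval 2.94 to 31.4), and over that whole list the share was 14.2%. The 7 control-only regions lay near Ttn (2), Tcap (2), Actn2 (1), Ldb3 (1) and Csrp3 (1), and the other 2 lay near Ttn and Des. Nebl, Pdlim5 and Des had every control region called in both lists, Actn2 had none, and Myoz2 had no region in either list.

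**Figure D1:**
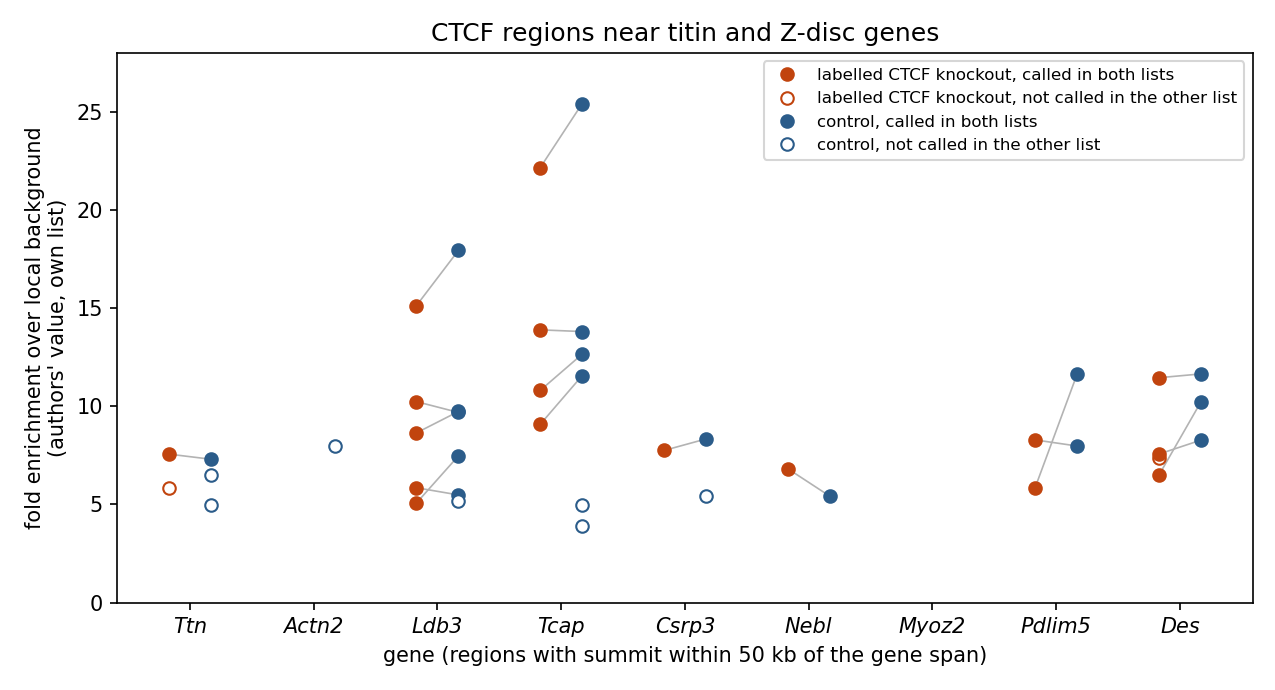
Fold enrichment (vertical axis, authors' value over a local background, own list) of each CTCF region within 50 kb of 9 genes, with the list labelled CTCF knockout left of the control list; each point is 1 region, filled points were called in both lists, open points in 1, and grey lines join overlapping regions. The open points lie between 3.88 and 7.98, and the highest filled points are at Tcap, 22.2 in the list labelled knockout and 25.4 in the control; 2 control points at Ldb3 (9.69 and 9.74) cover each other.

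Titin, encoded by Ttn (chromosome 2, 76703980 to 76982557, minus strand), spans 278.6 kb and held all of its regions inside the gene. The list labelled knockout had 2 regions there and the control list had 3. One place was called in both lists. It lay 2.15 kb into the gene from its start in the list labelled knockout (76980280 to 76980489, fold enrichment 7.56, 13 reads) and 2.12 kb in the control list (76980324 to 76980492, fold enrichment 7.30, 14 reads). Of the 169 bp of the control region, 166 bp were shared, and the summits lay 34 bp apart. The −log10 q, which grows as the caller's false discovery rate falls, was 8.75 in the list labelled knockout and 8.83 in the control list. This is the region nearest to any annotated start among the 9 genes.

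The other Ttn regions were each called in 1 list. A region 13.4 kb into the gene was called in the library labelled knockout (76969080 to 76969317) with a fold enrichment of 5.82 and 14 reads, and the nearest control region was 11.01 kb away. Control-only regions lay 52.6 kb into the gene (76929896 to 76930031, fold enrichment 6.48, 12 reads) and 139.2 kb into it (76843295 to 76843430, fold enrichment 4.99, 9 reads). The nearest regions of the list labelled knockout were 39.05 and 125.65 kb from these. The −log10 q was 6.50 for the region called in the list labelled knockout alone, and 6.91 and 3.90 for the control-only regions. Both control-only regions were 136 bp wide, the lowest width in the control list. Through the remaining length of Ttn, from 139.2 kb inward to its far end and 50 kb beyond, neither list held a region.

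The window around the Ttn start, from 250 bases before it to 50 bases after it in RefSeq (GRCm38.p6), is printed because it is the member start closest to a CTCF region. It is read on the minus strand, 5′ to 3′, at chr2:76982498-76982797, with the 50 bases after the start in capitals.
Ttn: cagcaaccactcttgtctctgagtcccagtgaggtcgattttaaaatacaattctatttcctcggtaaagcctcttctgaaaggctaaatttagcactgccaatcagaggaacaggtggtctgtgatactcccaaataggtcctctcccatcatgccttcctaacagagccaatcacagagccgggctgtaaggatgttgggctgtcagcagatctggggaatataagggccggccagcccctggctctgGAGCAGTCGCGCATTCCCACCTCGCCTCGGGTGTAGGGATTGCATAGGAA
Neither list had a region in this window. The CTCF core AGGGGGC and a second form of it (AGGTGGC) were each searched on both strands, and neither occurs in these 300 bases.

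Telethonin, encoded by Tcap (chromosome 11, 98383811 to 98384953), caps the Z-disc end of titin. The gene is 1.14 kb long and held no region, but 4 regions of the list labelled knockout and 6 of the control list lay within 50 kb. Within that limit, all 4 places called in both lists lay on the lower-coordinate side of Tcap, and both control-only regions lay on the higher-coordinate side. Just beyond it, 54.1 kb out on the higher-coordinate side, a further place was called in both lists. It had a fold enrichment of 4.93 in the list labelled knockout (98438831 to 98439091) and of 7.36 in the control list (98438942 to 98439133). The farthest place within 50 kb was the strongest of any near the 9 genes. It lay 41.0 kb from Tcap, with a fold enrichment of 22.2 and 40 reads in the list labelled knockout (98342331 to 98343003) and of 25.4 and 50 reads in the control list (98342266 to 98343106). Its −log10 q was 47.5 in the list labelled knockout and 60.9 in the control list. It ranked 55 by fold enrichment among all regions labelled knockout and 38 among all control regions.

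A second place lay 2.61 kb from that summit in the list labelled knockout and 2.69 kb in the control list, with fold enrichments of 10.8 and 12.7. The third lay inside Ppp1r1b, the gene for a phosphatase inhibitor known from dopamine-responsive neurons. It was 309 bp wide in the list labelled knockout (98355741 to 98356049, fold enrichment 9.08) and 704 bp wide in the control list (98355525 to 98356228, fold enrichment 11.6), and the summits lay 55 bp apart. The fourth lay inside Stard3, a cholesterol transport gene, 11.2 kb from Tcap. It had a fold enrichment of 13.9 and 25 reads in the list labelled knockout (98372468 to 98372735) and of 13.8 and 31 reads in the control list (98372506 to 98372759).

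The 2 control-only regions on the other side of Tcap were among the weakest near these genes. One lay inside Pgap3, a gene of lipid-anchor remodelling, 0.92 kb from an end of that gene (98389496 to 98389669), with a fold enrichment of 4.99 and 9 reads. The other lay at the start of Erbb2, the receptor for neuregulin signals in heart muscle (98412339 to 98412575), with a fold enrichment of 3.88 and 8 reads, at rank 19428 of 20043. The nearest regions of the list labelled knockout were 16.8 and 26.3 kb away from them.

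The Erbb2 window is printed because it is the only RefSeq start window (GRCm38.p6) that any of the 43 regions overlapped. It is read on the plus strand, 5′ to 3′, at chr11:98412234-98412533, and the capitals mark the 195 bases that lie inside the control-only region.
Erbb2: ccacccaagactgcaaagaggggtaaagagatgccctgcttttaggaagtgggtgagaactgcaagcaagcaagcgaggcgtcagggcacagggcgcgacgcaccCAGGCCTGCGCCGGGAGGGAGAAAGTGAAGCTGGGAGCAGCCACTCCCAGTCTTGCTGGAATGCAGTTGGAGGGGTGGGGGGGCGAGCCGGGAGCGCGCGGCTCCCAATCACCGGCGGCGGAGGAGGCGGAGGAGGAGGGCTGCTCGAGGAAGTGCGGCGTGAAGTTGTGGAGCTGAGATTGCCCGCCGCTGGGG
No AGGGGGC and no AGGTGGC was found in it on either strand. The region runs on for a further 42 bases beyond the window, which were not searched.

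Alpha-actinin-2, encoded by Actn2 (chromosome 13, 12269426 to 12340732, minus strand), crosslinks actin filaments in the Z-disc. The list labelled knockout had no region within 50 kb of it, and the control list had 1 inside the gene (12273022 to 12273233), 67.6 kb from the start and 3.69 kb from the far end. Its fold enrichment was 7.98, with 15 reads. It was the strongest of the 7 control-only regions. When the control list was cut into 10 equal groups by fold enrichment (deciles), 84.4% of the regions in its own group were called in both lists. The nearest region labelled knockout was 62.4 kb from it. That region lay 58.9 kb outside the gene (12210449 to 12210585), just beyond the limit of 50 kb, with a fold enrichment of 4.32 and 7 reads, and a control region overlapped it (12210382 to 12210622, fold enrichment 11.2, 22 reads).

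Cypher, a PDZ-LIM protein that binds alpha-actinin and is encoded by Ldb3 (chromosome 14, 34526699 to 34590314, minus strand), had the most regions of the 9 genes in the list labelled knockout. That list had 5 and the control list 6, of which 5 were called in both. Inside the gene, 3 places were called in both lists. The one 40.8 kb from the gene start had fold enrichments of 10.2 in the list labelled knockout (34549419 to 34549671) and 9.69 in the control list (34549452 to 34549673). The next, 19.8 kb from the start, had 8.64 (34570385 to 34570631) and 9.74 (34570319 to 34570564). The last, 16.0 kb from the start, had 5.85 with 11 reads (34574223 to 34574379) and 5.48 with 10 reads (34574185 to 34574356), so a region near the weak end of both lists was also called in both.

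Upstream of Ldb3, a pair of places was called in both lists, 4.18 kb apart in the list labelled knockout and 4.15 kb in the control list. The nearer one, 26.7 kb before the gene, was the second strongest of all near these genes. Its fold enrichment was 15.1 with 27 reads in the list labelled knockout (34616839 to 34617229) and 17.9 with 35 reads in the control list (34616782 to 34617234), with summits 6 bp apart. The one 30.9 kb before the gene had fold enrichments of 5.07 with 9 reads (34621061 to 34621274) and 7.48 with 14 reads (34620969 to 34621273). It lay within 1 kb of an end of the non-coding gene Gm52113. The control-only region lay between this pair and Ldb3, inside Opn4, the melanopsin gene (34595830 to 34596065), with a fold enrichment of 5.18 and 11 reads.

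Enigma homologue, a PDZ-LIM protein known to bind protein kinase C and encoded by Pdlim5 (chromosome 3, 142239585 to 142395719, minus strand), had 2 regions in each list, and the same 2 places were called in both. The place inside the gene, 112.8 kb from its start, had fold enrichments of 8.29 with 16 reads in the list labelled knockout (142282777 to 142282989) and 7.98 with 15 reads in the control list (142282789 to 142282977). All 189 bp of the control region were covered. The place 47.8 kb upstream, near the limit of 50 kb, had 5.85 with 11 reads (142443493 to 142443675) and 11.6 with 24 reads (142443452 to 142443659). These stood in the third decile of the list labelled knockout from its weak end and in the ninth of the control list, the widest gap in place of any pair near these genes.

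Calsarcin-1, a calcineurin-binding protein of the Z-disc encoded by Myoz2 (chromosome 3, 123006206 to 123035003, minus strand), had no region within 50 kb in either list. Of all protein-coding genes 25.2% had none in either list. The nearest summits lay 68.4 kb from the gene in both lists, at 1 place called in both, with fold enrichments of 7.35 in the list labelled knockout (123103289 to 123103502) and 11.6 in the control list (123103259 to 123103509). Nebulette, encoded by Nebl (chromosome 2, 17342673 to 17734949, minus strand), lines the thin filament next to the Z-disc. Its gene is the longest of the 9 at 392.3 kb, yet 1 place was called within its span and 50 kb on each side. That place lay 90.2 kb into the gene, with fold enrichments of 6.83 in the list labelled knockout (17644684 to 17644908) and 5.42 in the control list (17644710 to 17645074), 13 reads in each. Of 990 protein-coding genes of at least 200 kb, 37.1% had at most 1 control region and 64.9% had at most 3, the number at Ttn.

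Muscle LIM protein, encoded by Csrp3 (chromosome 7, 48830398 to 48848051, minus strand), is a Z-disc protein that also enters the nucleus. All of its regions lay upstream. The place 46.3 kb before the gene had fold enrichments of 7.75 with 14 reads in the list labelled knockout (48894247 to 48894451) and 8.34 with 16 reads in the control list (48894214 to 48894442). A control-only region lay 28.6 kb before the gene, inside E2f8, a cell-cycle transcription factor gene (48876600 to 48876765), with a fold enrichment of 5.42 and 13 reads. It had the same fold enrichment and reads as the control region in Nebl, which was called in both lists.

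Desmin, encoded by Des (chromosome 1, 75360292 to 75368579, plus strand), was the only one of the 9 genes with more regions in the list labelled knockout (4) than in the control list (3). The gene itself held none. The place 42.3 kb upstream, 0.38 kb from an end of the aminopeptidase gene Dnpep, had fold enrichments of 11.5 with 22 reads in the list labelled knockout (75317942 to 75318161) and 11.7 with 26 reads in the control list (75317944 to 75318153). A region 17.3 kb upstream was called in the list labelled knockout alone (75342919 to 75343161), with a fold enrichment of 7.35 and 16 reads, and the nearest control region was 24.8 kb away. In the same decile of that list by fold enrichment, 91.8% of regions overlapped a control region.

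Downstream of Des, a place 3.01 kb past the gene end had 7.56 with 13 reads in the list labelled knockout (75371499 to 75371664) and 8.28 with 16 reads in the control list (75371491 to 75371717). A place 45.4 kb past the end, inside Speg, a kinase gene of striated muscle, had 6.48 with 14 reads (75413809 to 75414037) and 10.2 with 20 reads (75413856 to 75414146). The summits at these places lay 5 and 1 bp apart.

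The Des start window is printed because it is the only member window that holds a core match, while the nearest summits lay 11.3 kb away in both lists. It is read on the plus strand, 5′ to 3′, from RefSeq (GRCm38.p6) at chr1:75360042-75360341, and the capitals mark the match, which is AGGGGGC on the opposite strand.
Des: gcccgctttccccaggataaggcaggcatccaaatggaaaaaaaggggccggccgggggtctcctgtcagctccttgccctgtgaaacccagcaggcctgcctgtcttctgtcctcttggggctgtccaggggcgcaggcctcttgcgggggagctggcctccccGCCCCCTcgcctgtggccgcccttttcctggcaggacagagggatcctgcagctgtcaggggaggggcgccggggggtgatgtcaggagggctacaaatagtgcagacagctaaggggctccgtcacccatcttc
RefSeq start windows were found for 8 of the 9 genes, 14 windows in all. Of these, 1 held AGGGGGC and none held AGGTGGC, while 10.6% and 6.15% of 32851 windows of the same length genome-wide held them. None of the 14 windows was overlapped by a region of either list.

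**Figure D2:**
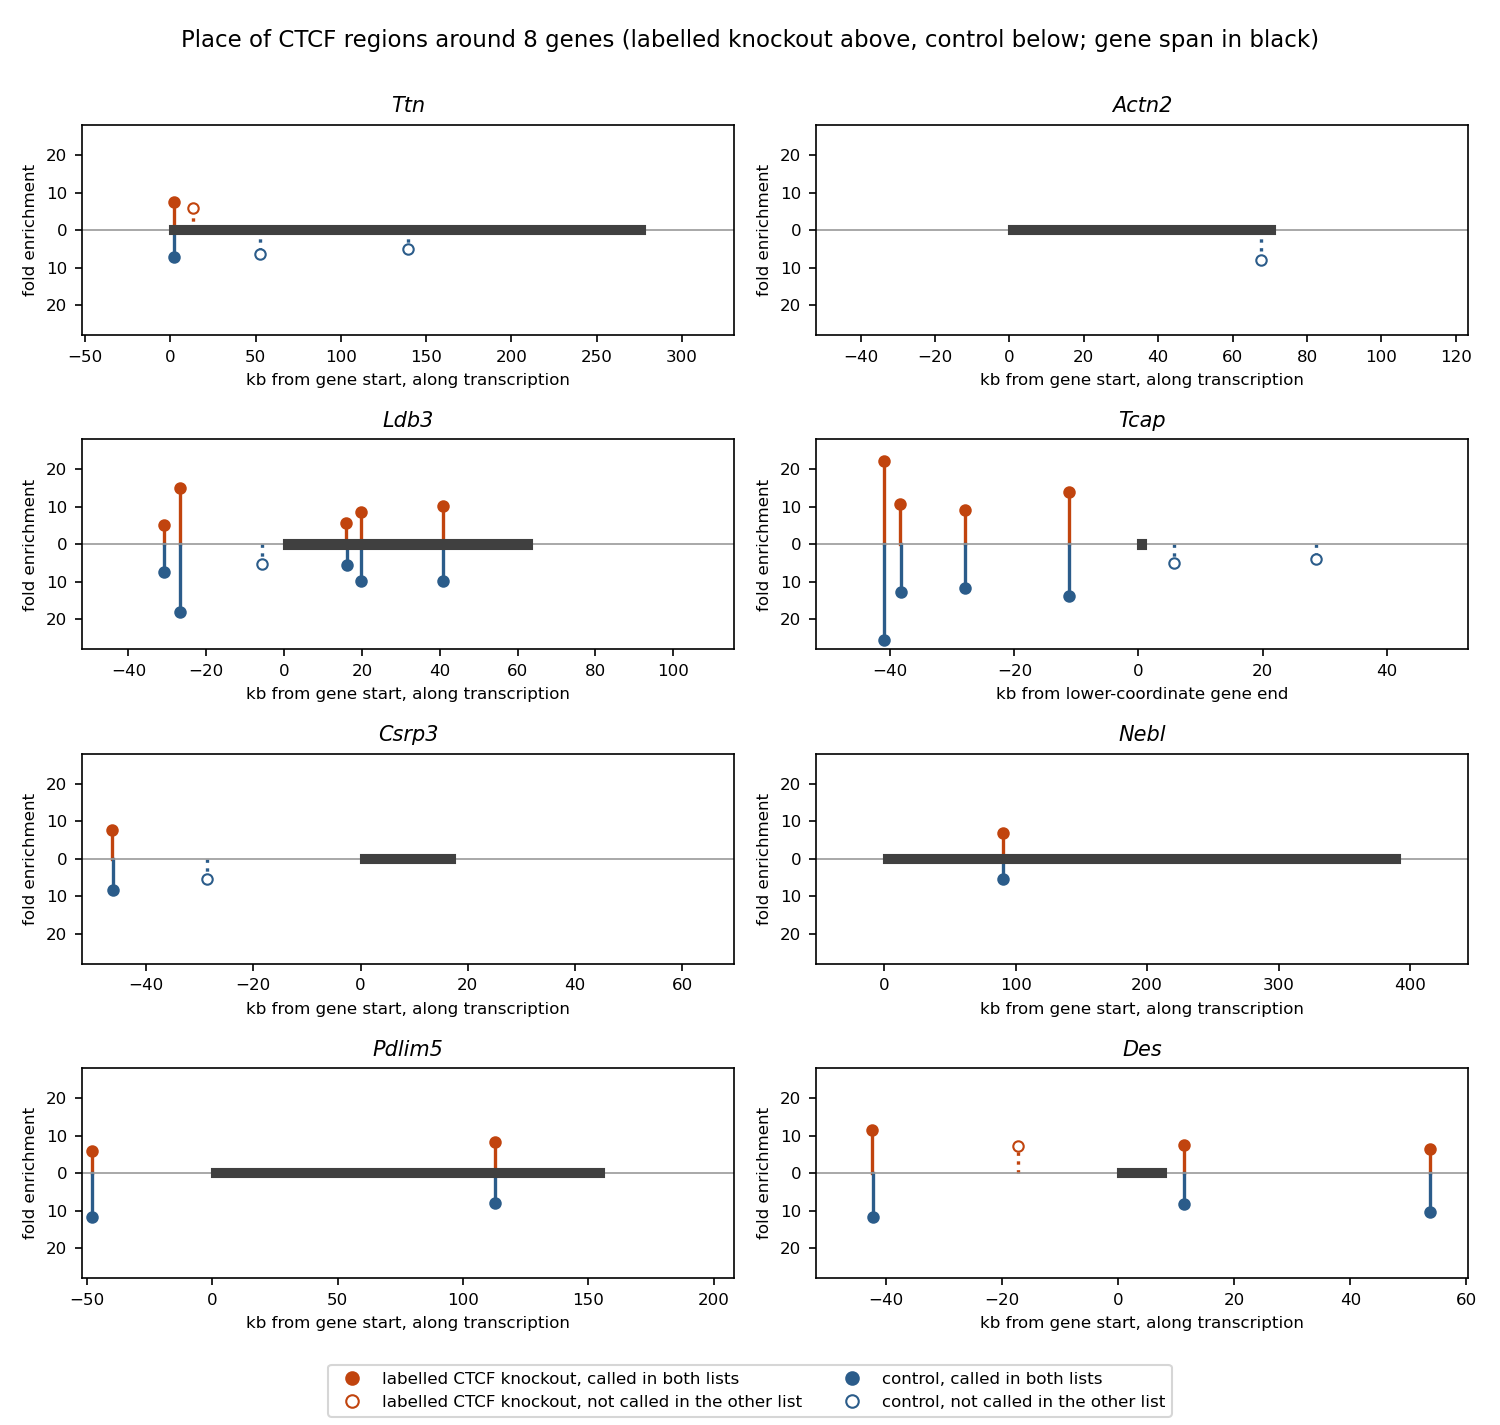
CTCF regions around 8 of the 9 genes by distance in kb from the gene start along transcription (for Tcap, from the lower-coordinate gene end); the height of each line is the fold enrichment in its own list, with the list labelled CTCF knockout above the axis and the control list below it, and the dark bar is the gene. Filled points were called in both lists and open points in 1. Within the 50 kb drawn, the 4 filled places at Tcap all lie to the left of the gene while both open ones lie to its right.

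The 9 genes ranged from 0 to 5 regions in the list labelled knockout and from 0 to 6 in the control list. Of all protein-coding genes, 10.6% had at least 5 regions labelled knockout, the number at Ldb3. In the control list 9.63% had at least 6, the number at Ldb3 and at Tcap. The median was 2 regions over the 9 genes in both lists, beside 1 region labelled knockout and 2 control regions over all protein-coding genes. In the list labelled knockout 7 of the 19 regions lay inside a member gene, and in the control list 9 of 24 did. Within 1 kb of an end of a protein-coding or long non-coding gene lay 2 of the 19 regions labelled knockout (10.5%, against 19.9% of that list) and 4 of the 24 control regions (16.7%, against 21.8%).

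**Figure D3:**
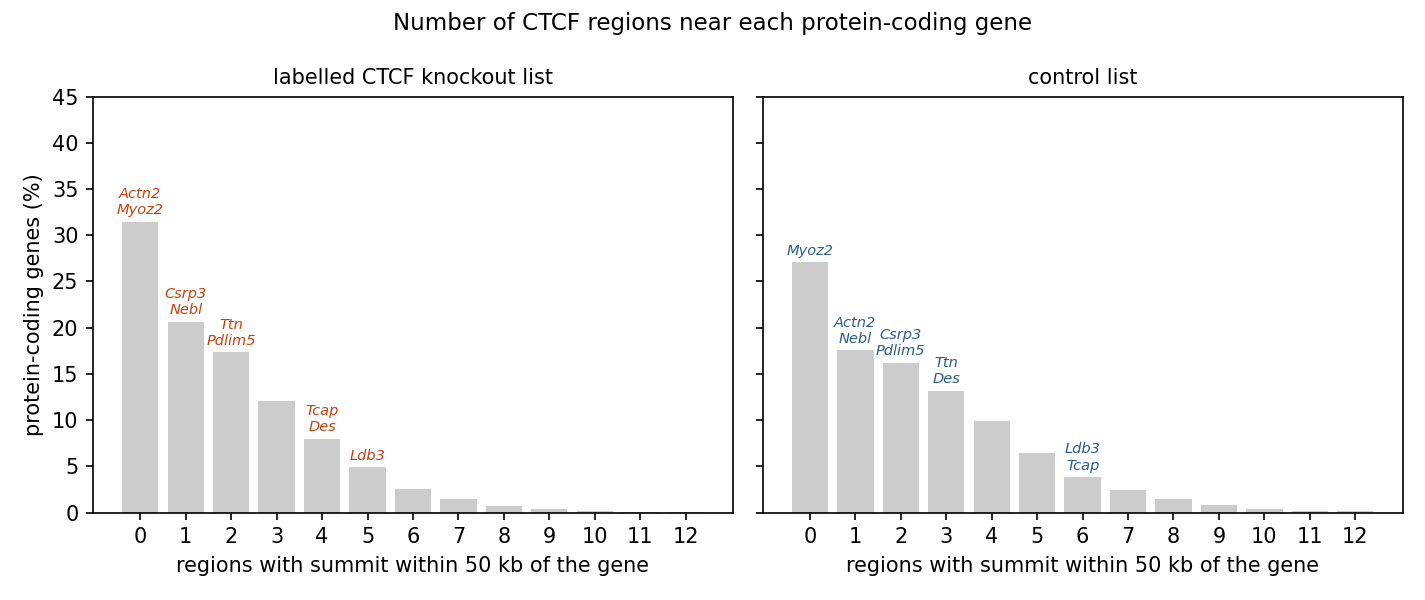
Share of all protein-coding genes (vertical axis, %) by the number of CTCF regions with a summit within 50 kb (horizontal axis, drawn to 12), in the list labelled CTCF knockout and in the control list; the names stand above the bar of their own count. Myoz2 stands at 0 in both panels, and Ldb3 is at 5 in the list labelled knockout and at 6 in the control list.

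Among the member regions, whether a control region was called in both lists ran with its place in the control list, as it did over the whole list. In the 3 strongest deciles of the control list by fold enrichment all 10 member regions were called in both lists, where 95.8% of all control regions were. In deciles 6 and 7, counted from the weakest, 5 of 6 member regions were called in both, beside 81.6% of all. In the 5 weakest deciles 2 of 8 were, beside 47.9% of all. In the list labelled knockout 7 of 7 member regions in the 3 strongest deciles overlapped a control region, beside 98.8% of all, 5 of 6 did in deciles 6 and 7, beside 93.6% of all, and 5 of 6 did in the 5 weakest, beside 74.9% of all. Adding up the shares of each member region's own decile gives 18.2 regions, and 17 were observed.

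Counted from the strong end of its own list, the median member region stood 42.6% of the way down the list labelled knockout and 36.1% down the control list. Member regions had a median fold enrichment of 7.75 in the list labelled knockout, where all regions had 7.13, and of 8.13 in the control list, where all regions had 6.98. Control regions called in both lists had a median fold enrichment of 9.74 and a median width of 246 bp near these genes. Those not called in the other list had 5.18 and 174 bp. Over the whole control list the same medians were 8.14 and 257 bp, and 5.48 and 175 bp. Control-only member regions had 8 to 15 reads at the summit, and those called in both lists had 10 to 50, so the groups overlapped. In the 17 overlapping pairs the summits lay a median of 21 bp apart and at most 74 bp, and over all pairs the median was 26 bp.

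**Figure D4:**
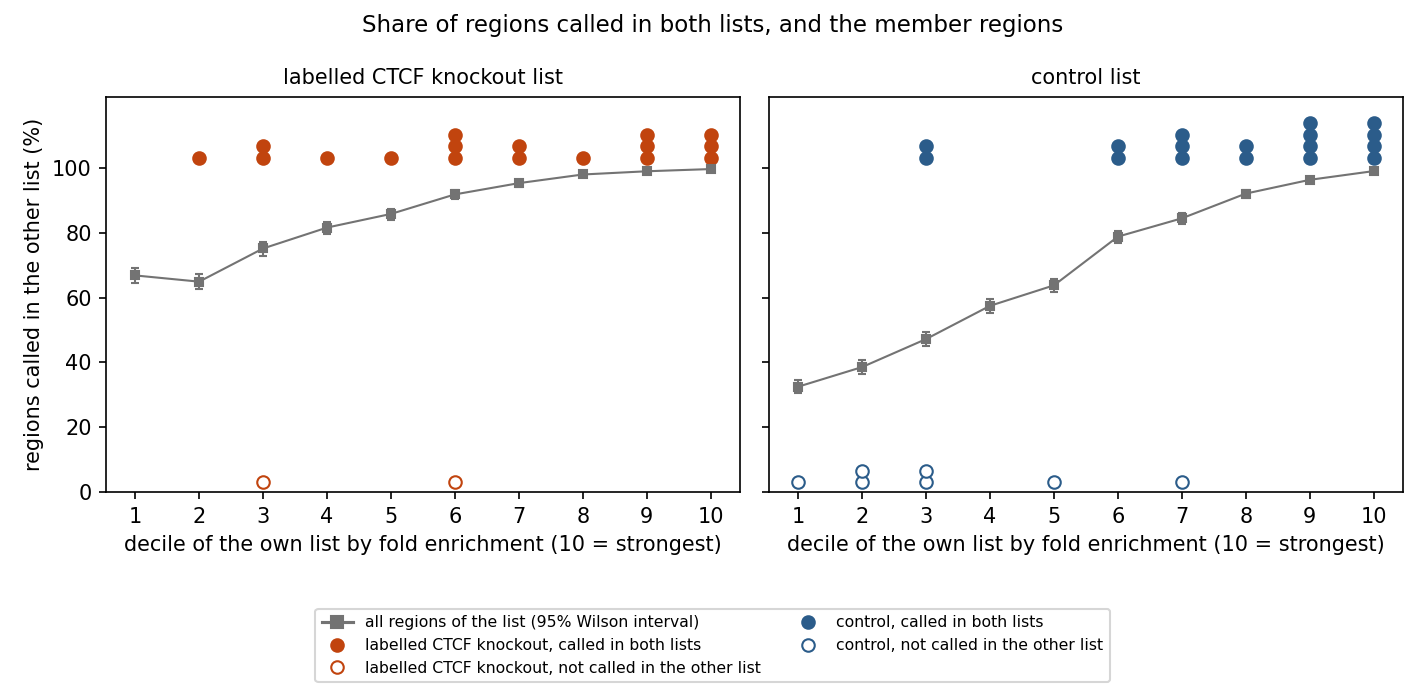
Share of regions called in the other list (vertical axis, %) for all regions in each decile of the own list by fold enrichment, from the weakest (1) to the strongest (10), with 95% Wilson intervals; the list labelled CTCF knockout is on the left and the control list on the right. Circles are single member regions placed by decile only, filled above the line when called in both lists and open at the bottom when not. In deciles 8 to 10 no open circle is drawn.

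A wider list of 42 Z-disc and sarcomere genes, none of them among the 9, held 99 regions in the list labelled knockout and 138 in the control list. Of its control regions 86 were called in both lists (62.3%, interval 54.0 to 70.0), an interval that includes the 69.0% of the whole list. Of its regions labelled knockout 13 overlapped no control region (13.1%). The most control regions stood near Capzb, an actin capping subunit gene, and Speg (11 each), near Actn1, a non-muscle alpha-actinin gene, and Obsl1, an obscurin relative (9 each) and near Nrap, a gene of a thin-filament anchoring protein (6, as many as Xirp1). These counts are not separate: Speg and Obsl1 share 6 regions labelled knockout and 8 control regions, and Speg shares 3 regions labelled knockout and 2 control regions with Des.

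In the wider list the places called in both lists with the highest control fold enrichment lay 15.3 kb from Pdlim3, a PDZ-LIM protein gene, 49.5 kb from Myom3, a gene of the M-band, 49.5 kb from Nexn, a gene of an actin-binding Z-disc protein, and within Palld, the palladin gene. Their control fold enrichments were 24.6, 22.0 and, for both Nexn and Palld, 18.98. The strongest control-only regions lay near Ilk, a kinase gene of cell adhesions (8.47), and, tied at 7.98, near Xirp1, an actin-binding protein gene, near Trim55, a ubiquitin ligase gene of muscle, and within Neb, the nebulin gene. The strongest regions called only in the list labelled knockout lay near Palld (7.61), near Speg (7.35, the region upstream of Des) and, tied at 7.02, within Myoz3, a calsarcin gene, and near Actn1. As near the 9 genes, no control region in the 3 strongest deciles was without a partner (39 of 39 called in both). Over the whole control list 95.8% of regions in these deciles were called in both. The 39 include a region inside Speg (75413856 to 75414146) that is also counted near Des. Vcl, Xirp2 and Smpx had no region in either list.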

How the data were processed

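The 2 CTCF ChIP libraries, 1 labelled CTCF knockout and 1 control, each came from cells of 3 pooled hearts. Per the submitters' processing notes, the authors used the mm10 build, Bowtie2 2.2.6, SAMtools 0.1.19 and MACS2, with settings not given there. Each deposited list holds summits, the authors' fold enrichment (a ratio), −log10 p- and q-values, and a score equal to the −log10 q times 10, rounded down. Read depth was not given. Pileups were recovered from the fold, taken as (pileup + 1)/(background + 1), and the −log10 p as a Poisson tail, with a deviation below 0.001 for 100% of regions. The 2 input libraries and the pressure-overload arm named by the series were not analysed here.

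Gene spans and starts came from RefSeq (GRCm38.p6, the build of mm10). Exons and genome sequence were not used here, so regions are not classed as exonic or intronic. Overlaps, ranks, deciles and Wilson intervals were computed with Python 3.11.15, pandas 2.3.3 and scipy 1.17.1. The recovery of pileups and the calling of overlaps were tested on simulated data. The genes and lists were chosen with earlier results of these data known. Of the wider list, the 5 genes with most control regions and those of the 3 strongest regions of each kind are named. Genes tied with the last of these, and the 3 genes without a region, were named after their values were seen. The alternatives were a −log10 q or fold of at least 5, lists of equal length, a 50% reciprocal overlap, summits within 100 bp, windows of 10 and 100 kb, and ranks by −log10 p.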

Additional observations from a re-analysis of the deposited data

How the results depend on the processing

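The number of regions depended on the window around each gene: with 10 kb there were 8 in the list labelled knockout and 12 in the control list, and with 100 kb there were 36 and 45, against 19 and 24. The share of control regions near the 9 genes called in both lists was 70.8%, and lay between 58.3% (10 kb window, 12 regions) and 81.0% (fold enrichment of at least 5, where all control regions had 71.3%, or the control list cut to the length of the other by fold enrichment). With equal lengths the share was 81.0% near the 9 genes, 70.1% in the wider gene list and 77.3% over all control regions. The share of regions labelled knockout without a control region was 10.5%, beside 14.2% of all, and lay between 5.56% (100 kb, 14.2% of all) and 16.7% (−log10 q of at least 5, 16.2% of all). With equal lengths it was 10.5%, beside 22.3% of all. Of 189 counts for single genes across 7 alternatives, 157 stayed within 1.5 times, and 31 of the other 32 came with the 10 or 100 kb windows. The last was Ldb3, with 3 places called in both lists at a −log10 q of at least 5. Many of the 189 counts could not move. The reciprocal overlap and summit rules leave the number of regions in each list unchanged, and cutting the control list leaves the counts labelled knockout unchanged. A gene without regions cannot change under a stricter cut-off. The 157 is therefore no measure of stability. No paired analysis was possible because there is 1 library per genotype, and leaving out a library was not possible for the same reason. Read depth is unknown, and control-only regions near the 9 genes rested on 8 to 15 reads, so a region missing from 1 list is not shown to be an unbound site.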
